A study of Rattus norvegicus with 24 samples.

Results

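The circadian clock and melatonin genes Per2, Clock, Bmal1, Dbp, Bhlhe40, Nr1d1, Nr1d2, Aanat and Asmt were followed through the retina of diabetic and control rats. Every probe whose RefSeq accession maps to one of these 9 symbols was taken, which gave 11 of the 33849 rat probes on the array. The 9 genes are among 4013 that could be named on it. Per2 and Clock had 2 probes each and the other 7 genes had 1. Of the 11 probes, 8 passed the limit for testing, 1 for each gene except Bhlhe40. The genes lie on chromosomes 1 (Dbp and Bmal1), 4 (Bhlhe40), 9 (Per2), 10 (Nr1d1 and Aanat), 12 (Asmt), 14 (Clock) and 15 (Nr1d2) of the rat assembly GRCr8.

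RNA from retinas of male Sprague Dawley rats was measured on 24 CodeLink rat whole genome arrays, which carry spotted oligonucleotides read in a single color. Rats had received streptozotocin (STZ), a toxin of the insulin-producing beta cells of the pancreas, or citrate vehicle alone, and retinas were taken 1 or 3 months (1M, 3M) later. The groups 1M Control, 1M STZ, 3M Control and 3M STZ held 6 arrays each, given as biological replicates in the series design. The study's list of animals has fewer 1M control rats than there are 1M Control arrays, so whether each of those is a separate rat is not settled, and all 6 were used. STZ rats were kept without insulin, so the model is one of uncontrolled diabetes and carries any other action of the drug. All rats shared a light/dark cycle, but the hour of retinal harvest is not given in the sources used here. The 1M and 3M rats were raised and killed as separate sets, so a difference between 1M and 3M joins age, harvest and array run, and these cannot be told apart.

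The circadian clock is a feedback loop of transcription. CLOCK and BMAL1 bind E-box elements as a pair and activate the period, cryptochrome, Nr1d and Dbp genes. PER and CRY proteins then block the pair, NR1D1 and NR1D2 (REV-ERB alpha and beta) repress Bmal1 through ROR elements, and BHLHE40 (DEC1) competes at E-boxes. In the mammalian retina this clock, set by light, times the nightly production of melatonin, for which AANAT (arylalkylamine N-acetyltransferase) makes the rhythmic step and ASMT (acetylserotonin O-methyltransferase) the last step. Levels of several of these transcripts are known to swing widely over the day, so a single harvest samples one point of a cycle.

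Promoter stretches are shown for the members whose windows carry the letters of elements bound by the clock's own factors. Each window of the RefSeq table for GRCr8 runs from 250 bases before to 50 after an annotated start, and the 9 genes had 11 such windows. Windows were searched on both strands for the E-box CACGTG, the E'-box CACGTT, the D-box TTATGNAA and the ROR element, here the half-site AGGTCA directly preceded by AANT. Of 33469 windows in the table, 6.42% held the E-box, 4.83% the E'-box, 3.66% the D-box and 0.245% the ROR element. Capitals mark the match, each stretch reads 5' to 3' on the strand of its gene, and matches within these stretches did not overlap each other. A match describes letters in a window and is no evidence of binding.

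Bmal1, ROR element, chr1:176766279-176766327, plus strand: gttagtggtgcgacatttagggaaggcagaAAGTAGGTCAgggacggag
Per2, E'-box, chr9:99497020-99497085, minus strand: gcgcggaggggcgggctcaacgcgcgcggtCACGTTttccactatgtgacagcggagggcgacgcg
Per2, D-box, chr9:99497148-99497215, minus strand: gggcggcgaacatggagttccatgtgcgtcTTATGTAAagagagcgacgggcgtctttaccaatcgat
Nr1d1, E-box, chr10:84229610-84229675, minus strand: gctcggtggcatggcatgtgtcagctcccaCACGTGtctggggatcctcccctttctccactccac
Nr1d1, E'-box on the opposite strand, chr10:84231951-84232016, minus strand: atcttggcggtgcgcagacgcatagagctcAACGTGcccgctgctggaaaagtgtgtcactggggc
Bhlhe40, E-box, chr4:143174200-143174265, plus strand: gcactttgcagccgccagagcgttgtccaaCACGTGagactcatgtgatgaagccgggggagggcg

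The matches began 19 bases (Bmal1), 62 and 192 bases (Per2), 191 and 174 bases (Nr1d1) and 220 bases (Bhlhe40) before the start of their window's transcript. The Nr1d1 E-box precedes a start that lies inside the annotated gene (chr10:84224599-84231812), and the Bmal1 element also lies inside the annotated gene (chr1:176766222-176864741). Windows of Clock, Dbp, Nr1d2, Aanat and Asmt held none of these letters.

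Levels are log2 of the background-subtracted intensity relative to the median rat probe of the same array, so 0 is the array median. Testing was limited to the 22025 rat probes with a median over 24 arrays above a scaled intensity of 0.5545, which is -0.85 on the log2 scale. Probe levels depend on the probe, so levels of different genes are not ranked. In whole retina, a lower level can come from fewer cells of a type or from less RNA per cell, which cannot be told apart. The rod genes Sag and Cnga1 both passed the limit for testing. The scaled intensities of the erythrocyte markers summed to 1.061 to 8.036, and the pigment epithelium markers to 1.379 to 12.88 on all arrays but 1 of 3M STZ, at 97.23.

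Some array properties moved with the groups. Before scaling, the array median was 123.5 to 359.6 in 1M Control, 156.4 to 303.3 in 1M STZ, 148.8 to 307.6 in 3M Control and 125.3 to 164.0 in 3M STZ. The interquartile range of log2 intensity was 3.36 to 3.67 at 1M, 1.48 to 2.23 in 3M Control and 2.07 to 2.70 in 3M STZ. The whole set of tested probes was shifted at 3M, with a median STZ over control difference of 0.44 on the log2 scale, against 0.01 at 1M. The 3M shift was 0.16 after quantile normalization, which forces the same distribution on every array. Array 2 of 3M Control stood apart: its correlation to the rest of its group was 0.842 at the median. Values relative to the shift of all probes and values after quantile normalization are therefore given beside each tested gene.

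**Figure D1:**
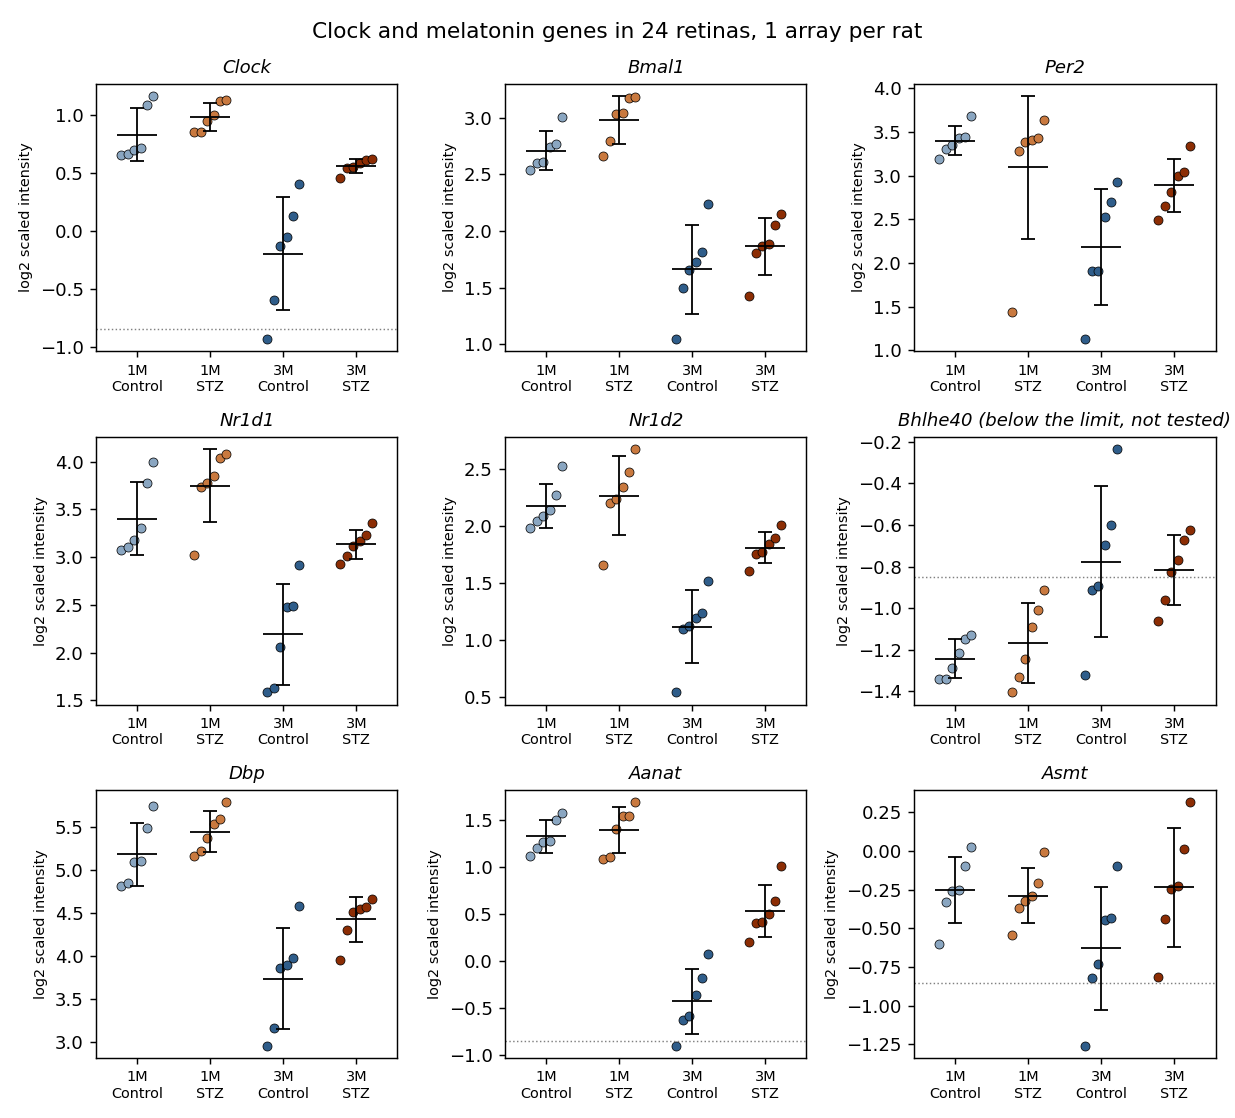
Level of each of the 9 genes on each of the 24 arrays (y axis, log2 scaled intensity; x axis, the 4 groups). Points are arrays, the long horizontal line is the group mean, whiskers are 1 SD over 6 arrays, and the dotted line in 4 panels is the testing limit of -0.85. The 3M STZ arrays lie wholly above the 3M Control arrays for Clock, Nr1d1, Nr1d2 and Aanat, and 1 Per2 point of 1M STZ lies alone at 1.44.

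Clock, which encodes one partner of the activator pair, was higher in 3M STZ than in 3M Control retinas. Its level was 0.65, 0.71 and 1.16 (lowest, median and highest of 6 arrays) in 1M Control and 0.85, 0.97 and 1.13 in 1M STZ. It was -0.94, -0.09 and 0.41 in 3M Control and 0.46, 0.57 and 0.62 in 3M STZ. The 1M groups overlapped, whereas at 3M every STZ array was above every control array. The log2 fold change at 3M was 0.76 (SE 0.17), or 1.69-fold, with an adjusted p of 0.00113 in limma. This was above the value of 84.3% of tested probes, and it was 0.98 (SE 0.23, limma adjusted p = 0.00208) after quantile normalization.

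At 1M the log2 fold change of Clock was 0.15 (SE 0.17). The interaction, the difference between the 3M and 1M effects, was 0.60 (SE 0.24, limma adjusted p = 0.0679). The 6 Clock values of 3M STZ were close together, with an SD of 0.06, against 0.49 in 3M Control. The second Clock probe was above the limit on 1 of 24 arrays and was not tested. Its mean was -1.75 in 3M STZ and -1.51 in 3M Control, a difference opposite in sign to that of the tested probe, with overlapping groups.

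Bmal1, the other partner of the pair, was not called in either comparison of STZ with control. It was at 2.54, 2.67 and 3.01 in 1M Control and at 2.66, 3.04 and 3.18 in 1M STZ. It was at 1.04, 1.69 and 2.23 in 3M Control and at 1.42, 1.87 and 2.15 in 3M STZ. STZ and control arrays overlapped at both times. Bmal1 had a log2 fold change of 0.27 (SE 0.16) at 1M and 0.20 (SE 0.16, limma adjusted p = 0.284) at 3M.

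Relative to all tested probes, Bmal1 stood lower at 3M than at 1M. Its fold change was higher than that of 94.2% of tested probes at 1M and of 29.0% at 3M. After quantile normalization the 3M value was -0.25 (SE 0.12, limma adjusted p = 0.106), of opposite sign and also not called. The interaction after quantile normalization was -0.51 (SE 0.17) with a limma adjusted p of 0.0501, against -0.07 (SE 0.23) with median scaling.

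Per2, a repressor that pairs with cryptochromes, had an array in 1M STZ far below the others. Its level was 3.19, 3.39 and 3.68 in 1M Control and 1.44, 3.40 and 3.63 in 1M STZ. It was 1.13, 2.22 and 2.93 in 3M Control and 2.49, 2.90 and 3.33 in 3M STZ. Groups overlapped at both times, and array 6 of 1M STZ, at 1.44, was far below the other 5 arrays of its group, which began at 3.28. At 3M the log2 fold change was 0.70 (SE 0.29, limma adjusted p = 0.0412), or 1.63-fold, above the value of 79.9% of tested probes.

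The Per2 call at 3M depended on single arrays and on the scaling. It held in 17 of 24 fits with 1 array left out, and without array 2 of 3M Control the value was 0.49 (limma adjusted p = 0.148). After quantile normalization it was 0.20 (SE 0.26, limma adjusted p = 0.591). At 1M the log2 fold change was -0.31 (SE 0.29), and 0.02 without array 6 of 1M STZ. The second Per2 probe was above the limit on 6 arrays and not tested, and its 3M STZ mean was -1.14 against -0.29 in 3M Control, a difference opposite in sign to that of the tested probe.

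Nr1d1, the repressor REV-ERB alpha, was 1.93-fold higher in 3M STZ than in 3M Control retinas. It was at 3.07, 3.24 and 3.99 in 1M Control and at 3.02, 3.81 and 4.08 in 1M STZ. It was at 1.58, 2.26 and 2.92 in 3M Control and at 2.93, 3.14 and 3.35 in 3M STZ. The 3M groups did not overlap, but the highest control array (2.92) and the lowest STZ array (2.93) were close. Nr1d1 had a log2 fold change of 0.95 (SE 0.21, limma adjusted p = 0.00131) at 3M and 0.35 (SE 0.21) at 1M.

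Nr1d1 changed more than most probes under median scaling, with a 3M fold change above that of 94.2% of tested probes. Its 1M value was above that of 97.4% of them but had an unadjusted limma p of 0.114. After quantile normalization the 3M value was 0.41 (SE 0.18), which missed the threshold with a limma adjusted p of 0.0793. Leaving out each array in turn gave 3M values of 0.82 to 1.09, called in all 24 fits.

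Nr1d2, the paralog REV-ERB beta, was 1.62-fold higher in 3M STZ. Its level was 1.99, 2.11 and 2.53 in 1M Control and 1.66, 2.29 and 2.68 in 1M STZ. It was 0.54, 1.16 and 1.52 in 3M Control and 1.61, 1.81 and 2.01 in 3M STZ. As for Nr1d1, the 1M groups overlapped and the 3M groups did not. The log2 fold change at 3M was 0.69 (SE 0.16, limma adjusted p = 0.00163), above the value of 78.6% of tested probes, and 0.29 (SE 0.17, limma adjusted p = 0.197) after quantile normalization.

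Bhlhe40, an E-box repressor, was too dim to be tested, with a scaled intensity above the limit on 7 of 24 arrays. It was at -1.34 to -1.13 in 1M Control, -1.40 to -0.91 in 1M STZ, -1.32 to -0.23 in 3M Control and -1.06 to -0.63 in 3M STZ. The ranges of STZ and control arrays overlapped at both times. Group means differed by 0.08 at 1M and by -0.04 at 3M (STZ minus control).

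Dbp, a PAR bZIP factor that acts on D-boxes and is a direct output of the pair, was 1.61-fold higher in 3M STZ with median scaling. It was at 4.81, 5.09 and 5.74 in 1M Control and at 5.16, 5.45 and 5.78 in 1M STZ. It was at 2.96, 3.88 and 4.58 in 3M Control and at 3.96, 4.53 and 4.66 in 3M STZ. Groups overlapped at both times. Dbp had a log2 fold change at 3M of 0.69 (SE 0.21, limma adjusted p = 0.0104) and at 1M 0.26 (SE 0.21), and the 3M value was above that of 78.0% of tested probes.

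After quantile normalization the Dbp value at 3M was 0.01 (SE 0.15, limma adjusted p = 0.975). The group means were then 4.25 in both 3M groups. Array brightness, the log2 median before scaling, correlated with Dbp over arrays at -0.77 as deviations from group means, against a median of -0.19 over all tested probes.

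Aanat, the rhythmic enzyme of melatonin synthesis, had the smallest adjusted p of the 8 tested genes between 3M STZ and 3M Control. Its level was 1.11, 1.27 and 1.57 in 1M Control and 1.09, 1.47 and 1.69 in 1M STZ. It was -0.90, -0.48 and 0.07 in 3M Control and 0.20, 0.46 and 1.01 in 3M STZ. The 1M groups overlapped almost wholly, and the 3M groups not at all. The log2 fold change at 3M was 0.96 (SE 0.16), or 1.94-fold, with a limma adjusted p of 0.00019, above the value of 94.6% of tested probes. After quantile normalization it was 1.33 (SE 0.20, limma adjusted p = 4.02e-05).

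The effect on Aanat differed between the times. At 1M the log2 fold change was 0.07 (SE 0.16), and the interaction was 0.89 (SE 0.23, limma adjusted p = 0.0239). It was 1.26 (SE 0.28, limma adjusted p = 0.00774) after quantile normalization. Leaving out each array in turn gave interactions of 0.79 to 0.99, all called. When log2 values were centered on the tested probes, which removes most of the shift of all probes at 3M, the interaction was 0.51 and no longer called (limma adjusted p = 0.125). The 3M value was then 0.59, still called (limma adjusted p = 0.00424).

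Asmt, the last enzyme of the pathway, was nearest to the limit of the tested genes, and its 3M call depended on the scaling. It was at -0.60, -0.26 and 0.02 in 1M Control and at -0.54, -0.31 and 0.00 in 1M STZ. It was at -1.26, -0.59 and -0.09 in 3M Control and at -0.81, -0.24 and 0.32 in 3M STZ. All groups overlapped. The log2 fold change at 3M was 0.40 (SE 0.18, limma adjusted p = 0.0624), above the value of 45.2% of tested probes, and 0.76 (SE 0.25, limma adjusted p = 0.0246) after quantile normalization. The value at 1M was -0.04 (SE 0.18).

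Counted together, 6 of the 8 tested genes (Clock, Per2, Nr1d1, Nr1d2, Dbp and Aanat) were called higher in 3M STZ and 0 lower. Over all tested probes 50.5% were called higher at 3M, and the count of 6 is read against that broad shift. The 8 genes had a median of 0.70, against 0.44 over all tested probes. STZ arrays lay wholly above control arrays at 3M for 4 of the 8 genes, against 9.49% of tested probes. After quantile normalization 3 of the 8 were called higher (Clock, Aanat and Asmt), against 24.6% of tested probes, with medians of 0.35 for the genes and 0.16 for all probes. Clock and Aanat were called under both scalings, but each was below the testing limit on array 2 of 3M Control. A filter above the limit on all arrays drops both.

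At 1M none of the 8 genes was called by limma and none had an unadjusted p under 0.05. Of all tested probes 0.00908%, or 2, were called at 1M, and 4.21% had an unadjusted p under 0.05. The methods' test, at an unadjusted p under 0.01 and 1.2-fold, called 0 of the 8 genes and 1.19% of all tested probes. The 1M log2 fold changes ran from -0.31 (Per2) to 0.35 (Nr1d1), with a median of 0.12. For the interaction, 1 of the 8 genes (Aanat) was called, against 15.5% of tested probes.

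**Figure D2:**
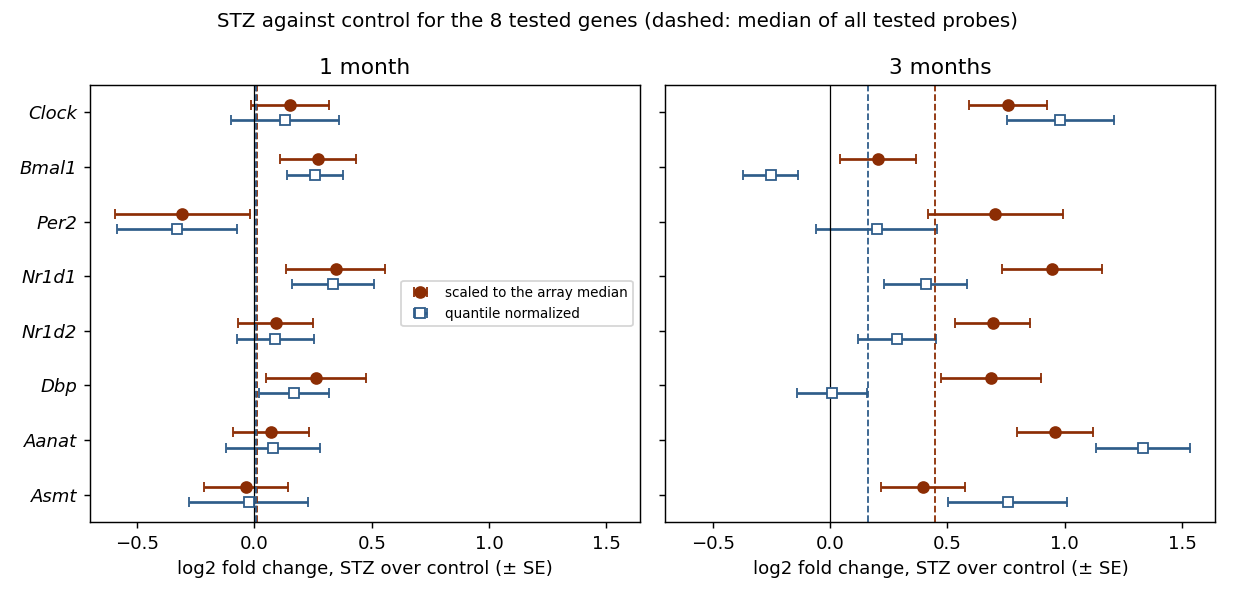
Log2 fold change of STZ over control (x axis, whiskers 1 SE) for the 8 tested genes at 1 month (left) and 3 months (right), with arrays scaled to their median (filled circles) or quantile normalized (open squares). Dashed lines are the medians of all 22025 tested probes, at 0.44 and 0.16 at 3 months. At 3 months Aanat, Clock and Asmt lie farther right after quantile normalization, and Dbp, Nr1d1, Nr1d2, Per2 and Bmal1 farther left.

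Control retinas of the 3M set had lower levels of 7 of the 8 genes than those of the 1M set, by limma, against 55.6% of tested probes called lower. Aanat fell by 1.75, Dbp by 1.44, Per2 by 1.22, Nr1d1 by 1.21, Nr1d2 by 1.06, Bmal1 by 1.05 and Clock by 1.03 on the log2 scale, and the median of all tested probes was -0.52. For these 7 genes the highest 3M Control array was below the lowest 1M Control array, as for 30.1% of all tested probes in that direction. Asmt, with a value of -0.38, was not called. The second Per2 probe, not tested, was instead higher by 2.57, with every 3M Control array above every 1M Control array. Bhlhe40 and the second Clock probe, also not tested, were higher by 0.47 and 0.04, with overlapping groups. After quantile normalization all 8 genes were called lower, against 38.9% of tested probes. Age, harvest and array run cannot be told apart in this contrast.

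The spread between rats of one group was compared with that of other probes, since the harvest hour of single rats is not given. The pooled SD within groups was 0.55 for Per2, higher than for 95.8% of tested probes, and without array 6 of 1M STZ it was 0.39, higher than for 74.7%. For Dbp and Nr1d1 it was 0.39 each, higher than for 76.3% and 75.9%, and without array 6 of 1M STZ it was 0.397 and 0.396, slightly above the Per2 value. The remaining genes were below the median of all tested probes, which was 0.32, with 0.31 for Asmt, 0.28 for Clock, 0.27 for Bmal1 and Aanat and 0.26 for Nr1d2. With all arrays 3 of the 8 genes were wider than the median probe and 5 were narrower.

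After quantile normalization Dbp and Nr1d1 were wider than 20.4% and 41.7% of probes and Bmal1 than 3.19%. Per2 was wider than 85.3% of them, Asmt than 84.3%, Clock than 74.9%, Aanat than 59.8% and Nr1d2 than 33.5%. Clock, Aanat and Asmt thus passed from narrower to wider than the median probe, and Dbp and Nr1d1 from wider to narrower. Of the 4 groups, 3M Control was the widest for all tested probes, with a median SD of 0.42 against 0.22 to 0.25 in the others. Array 6 of 3M Control had the highest level of its group for Clock, Bmal1, Per2, Nr1d1, Nr1d2, Dbp and Aanat. Array 2 had the lowest for each of these genes and for Asmt.

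Whether the genes moved together between rats of one group was asked with the deviations of each array from its group mean. Among the 8 tested genes there are 28 pairs, and each was tested by permuting arrays within groups (100000 draws, two-sided). After Benjamini-Hochberg adjustment over the 28 pairs, 9 correlations passed 0.05, and all 28 were positive. Quantile normalization left 2 of the 9 (Dbp with Nr1d1, and Clock with Nr1d1). A positive r was also common with other probes. Per2 with Asmt (r = 0.098) was above only 25.8% of the values of Per2 with all tested probes. Clock with Nr1d2 (r = 0.461) was above 50.6% of those of Clock. Pairs of other probes were not counted in the same way.

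Dbp and Nr1d1, both targets of the activator pair, gave a correlation that passed after quantile normalization and in each set of rats. Over 24 arrays Pearson's r was 0.878 (permutation p = 1e-05, the smallest these draws can give, adjusted p = 9.3e-05) and Spearman's rho was 0.837 (permutation p = 1e-05, adjusted p = 0.00014). Without the 2 arrays farthest from the Dbp median r was 0.822. It was 0.847 in the 12 arrays of 1M (permutation p = 0.00045) and 0.924 in the 12 of 3M (permutation p = 0.00052). Dbp and Nr1d1 thus deviated in the same direction in both sets of rats. This r was above that of Dbp with 99.7% of tested probes. Of the other 8 pairs that passed, Per2 with Clock or Bmal1, Clock with Dbp or Nr1d1 and Nr1d2 with Aanat had an r above 96.1% to 98.7% of the first gene's values with all probes. For Clock with Bmal1, Bmal1 with Dbp and Clock with Aanat this share was 68.2%, 66.6% and 68.6%.

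Array brightness moved with these genes. Dbp, Clock and Nr1d1 correlated with brightness at -0.77, -0.75 and -0.71 within groups. With the regression on brightness removed, r between Dbp and Nr1d1 was 0.736 (permutation adjusted p = 0.00084). After quantile normalization it was 0.756 (permutation adjusted p = 0.00504).

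Clock followed both genes, less closely after quantile normalization. Clock with Nr1d1 gave r = 0.857 and rho = 0.846 (permutation p = 1e-05 and 5e-05, adjusted p = 9.3e-05 and 0.000467), with 0.815 at 1M, 0.937 at 3M and 0.835 without the 2 farthest arrays. After quantile normalization r was 0.546 (permutation adjusted p = 0.00392). Clock with Dbp gave r = 0.888 and rho = 0.834 (permutation p = 2e-05 and 0.00012, adjusted p = 0.00014 and 0.00084), with 0.811 at 1M, 0.922 at 3M and 0.806 without the 2 farthest arrays. After quantile normalization it was 0.418, which missed the threshold (permutation adjusted p = 0.154).

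Nr1d2 correlated with Aanat, whereas its correlation with its paralog Nr1d1 missed the threshold. Nr1d1 with Nr1d2 gave r = 0.158 (permutation p = 0.553, adjusted p = 0.595) and rho = 0.181 (permutation p = 0.433), with -0.32 at 1M, 0.692 at 3M and 0.255 without the 2 farthest arrays. Nr1d2 with Aanat gave r = 0.748 (permutation p = 7e-05, adjusted p = 0.000392) and rho = 0.709 (permutation p = 0.00031), with 0.747 at 1M, 0.790 at 3M and 0.682 without the 2 farthest arrays. With brightness removed r was 0.759 (permutation adjusted p = 0.00084), and after quantile normalization 0.418, not called (permutation adjusted p = 0.337).

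Bmal1 had correlations with Dbp and Nr1d1 that were below 0 at 1M, where neither passed, and above 0 at 3M. Bmal1 with Dbp gave r = 0.602 over all arrays (permutation p = 0.0124, adjusted p = 0.0417) and rho = 0.363 (permutation p = 0.112). It was -0.24 at 1M (permutation p = 0.452) and 0.934 at 3M (permutation p = 6e-05), and 0.266 without the 2 farthest arrays, so the pooled value rests on those arrays and on 3M. Bmal1 with Nr1d1 gave r = 0.416 (permutation p = 0.0912, adjusted p = 0.17) and rho = 0.251 (permutation p = 0.278). Its r was -0.24 at 1M (permutation p = 0.48), 0.818 at 3M and 0.063 without the 2 farthest arrays. After quantile normalization r was 0.001 for Bmal1 with Dbp and -0.139 for Bmal1 with Nr1d1, neither called. The difference between 1M and 3M in these correlations was not tested.

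The other 4 pairs that passed each involved Clock or Per2. Per2 with Clock gave r = 0.654 and rho = 0.679 (permutation p = 1e-05 each, adjusted p = 9.3e-05 and 0.00014), with 0.401 at 1M, 0.882 at 3M and 0.714 without the 2 farthest arrays. Per2 with Bmal1 gave r = 0.695 and rho = 0.596 (permutation p = 0.00034 and 0.00485, adjusted p = 0.00159 and 0.0194), with 0.558 at 1M, 0.850 at 3M and 0.567 without the 2 farthest arrays. Both kept their sign in each set of rats.

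Clock with Aanat gave r = 0.621 and rho = 0.470 (permutation p = 0.00395 and 0.0352, adjusted p = 0.0158 and 0.11), with 0.325 at 1M, 0.734 at 3M and 0.356 without the 2 farthest arrays. Clock with Bmal1 gave r = 0.618 and rho = 0.352 (permutation p = 0.0134 and 0.122, adjusted p = 0.0417 and 0.243), with -0.17 at 1M, 0.862 at 3M and 0.181 without the 2 farthest arrays, so this value too rests on those arrays and on 3M.

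More pairs passed in the 3M arrays than in the 1M arrays, a difference that was not tested. In the 12 arrays of 3M, 15 of 28 pairs passed the adjusted threshold and all 28 were positive, whereas at 1M 2 pairs passed (Dbp with Nr1d1 and Clock with Nr1d1) and 14 of 28 were positive. These counts were not set against pairs of other probes, so they do not show that these genes moved together more than others. At 3M the pairs of Clock with Nr1d1, Dbp with Bmal1 and Dbp with Nr1d1 had r of 0.937, 0.934 and 0.924. Arrays 2 and 6 of 3M Control were the lowest and the highest of their group for 7 of the 8 genes. Without array 2 of 3M Control 6 pairs passed over all arrays and 21 were positive, and without array 6 it was 6 and 27.

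**Figure D3:**
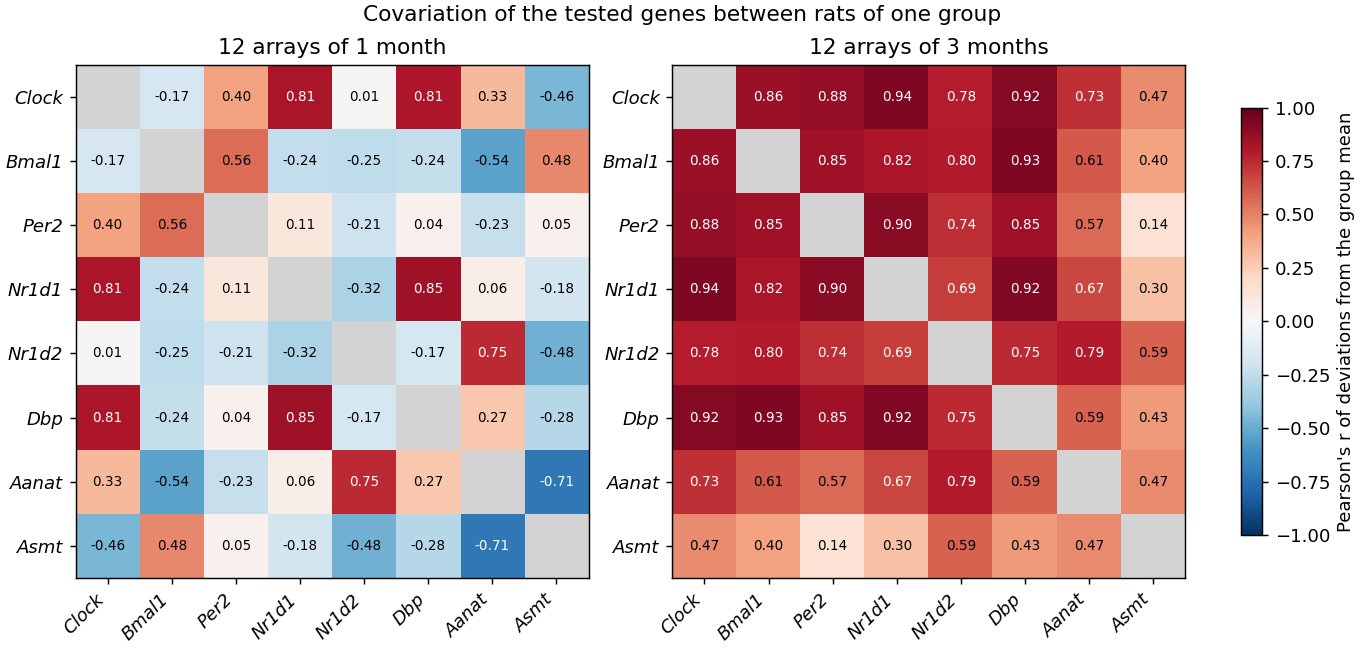
Pearson's r of deviations from the group mean for each pair of the 8 tested genes, in the 12 arrays of 1 month (left) and the 12 of 3 months (right), on a color scale from -1 to 1 with the value in each cell. At 1 month the high values are Dbp with Nr1d1 (0.85), Clock with each of them (0.81) and Nr1d2 with Aanat (0.75), and at 3 months all 28 pairs are positive.

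**Figure D4:**
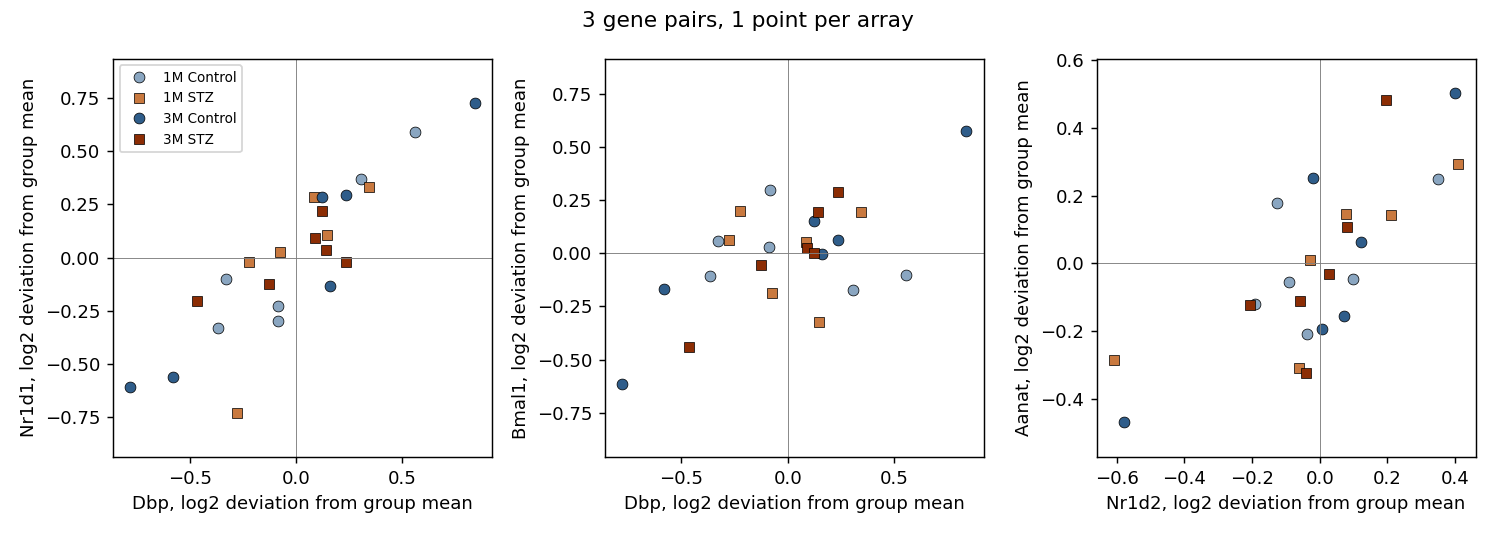
Deviation of each array from its group mean (both axes, log2 scale) for Dbp and Nr1d1 (left), Dbp and Bmal1 (middle) and Nr1d2 and Aanat (right), with circles for control and squares for STZ arrays. Dbp and Nr1d1 deviate in the same direction on most arrays, whereas for Dbp and Bmal1 the dark 3 month points follow a line and the light 1 month points do not.

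Among all genes with a symbol, those whose deviations were most like each member's were named, as a description over 24 arrays. For Dbp they were Gabra4 (r = 0.930), Slc45a1 (0.900) and Clock (0.888). For Nr1d1 they were Sstr2, Vdac1 and Atp5pf (0.902 to 0.911), and for Clock Ppp1ca, Hpn and Gabra4 (0.941 to 0.948). For Per2 they included Cckbr (0.904) and Hax1 (0.877), and without the array farthest from the Per2 mean these values were 0.797 and 0.890. For Bmal1 they were Nell1, Cnr1 and Tyro3 (0.892 to 0.929), for Nr1d2 Slc26a4, Smad5 and Nherf1 (0.878 to 0.887), for Aanat Nos1ap, Gnai2 and Hal (0.841 to 0.879) and for Asmt Psmb2, Atp5f1d and Selenow (0.826 to 0.873). After quantile normalization r was lower for every gene named here except Cckbr (0.911). It then ran from 0.418 (Dbp with Clock) to 0.912 (Clock with Hpn), with 0.492 for Nr1d1 with Vdac1. All points share the array's brightness and scaling.

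The rest of the clock was covered in part. Of 22 other clock genes 9 had a probe and were tested, and 3 passed the test at 3M, all higher. Over all tested probes 50.5% were called higher. The median of the 9 was 0.30, against 0.44 over all probes. Nfil3, a repressor at D-boxes and so the counterpart of Dbp, was at 0.74, 1.06 and 1.64 in 3M Control and at 1.57, 1.93 and 2.17 in 3M STZ, and the groups overlapped. Its fold change was 0.76 (SE 0.15, limma adjusted p = 0.000593). Timeless was at 0.54, 0.66 and 0.78 in 3M Control and at 0.82, 1.30 and 1.61 in 3M STZ, without overlap, with a fold change of 0.56 (SE 0.16, limma adjusted p = 0.00615).

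Bhlhe41, the paralog of Bhlhe40, had a log2 fold change of 0.55 (SE 0.19, limma adjusted p = 0.0168) at 3M. The lowest values of the list were those of the kinase gene Csnk1e (-0.50, SE 0.24), Cry2 (-0.26, SE 0.17) and Cry1 (0.17, SE 0.22), none of them called. Cry1 and Cry2 encode the cryptochromes with which PER2 acts. After quantile normalization 2 of the 9 were called higher, against 24.6% of all tested probes. These were Nfil3 (0.35, limma adjusted p = 0.0256) and Prkaa2 (0.86, limma adjusted p = 0.0242). Timeless (0.23, limma adjusted p = 0.21) and Bhlhe41 (-0.12, limma adjusted p = 0.447) were then not called. At 1M none of the 9 was called under either scaling.

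Of 18 other genes of melatonin synthesis and retinal rhythm 8 had a probe and 6 were tested. At 3M 3 of them passed the test, all higher, a share near the 50.5% of all tested probes, and the median of the 6 was 0.39, against 0.44 over all probes. These were Adcyap1, which encodes the neuropeptide PACAP (0.77, SE 0.17, limma adjusted p = 0.00142), Drd4, the dopamine D4 receptor gene (0.55, SE 0.23, limma adjusted p = 0.0411), and Adra1b, an adrenergic receptor gene (0.45, SE 0.15, limma adjusted p = 0.0142). Opn4, which encodes melanopsin, had 0.33 (SE 0.15), Ddc, for an enzyme upstream of AANAT, 0.23 (SE 0.18), and Crx, a photoreceptor transcription factor gene, -0.04 (SE 0.20), none of them called. After quantile normalization 1 of the 6 was called higher, against 24.6% of all tested probes. This was Ddc, at 0.72 (limma adjusted p = 0.0148). Adcyap1 (0.37, limma adjusted p = 0.11), Drd4 (0.80, limma adjusted p = 0.052) and Adra1b (0.31, limma adjusted p = 0.132) were then not called. At 1M none of the 6 was called.

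Immediate early genes encode regulators that respond quickly to light and other stimuli, and were measured on the same arrays. Of 12 listed genes 8 had a probe and 5 were tested. At 3M 4 of these passed the test, all higher, against 50.5% of all tested probes, and the median of the 5 was 1.06, against 0.44. Nr4a1 had a log2 fold change of 1.29 (SE 0.36, limma adjusted p = 0.00567), Egr1 1.26 (SE 0.43, limma adjusted p = 0.0167), Jun 1.06 (SE 0.21, limma adjusted p = 0.000595) and Junb 0.88 (SE 0.18, limma adjusted p = 0.00082). Dusp1, at 0.33 (SE 0.16), was not called. Array 1 of 3M STZ had an Egr1 level of 5.99 and an Nr4a1 level of 5.33, against at most 3.25 and 2.63 on the other 5, and without it the differences of means were 0.69 and 0.79. On that array Per2 and Aanat were the highest and the lowest of the group, at 3.33 and 0.20. After quantile normalization 2 of the 5 immediate early genes were called higher, against 24.6% of all tested probes. The part of this array's state in the member values was not tested.

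Cell type markers were read at 3M against the 50.5% of all tested probes called higher. Of 6 lens markers 5 were called higher, with sums of 72.84 to 215.9 in 3M Control and 273.3 to 549.1 in 3M STZ, and after quantile normalization 2 were. Of 4 Mueller glia markers 3 were called higher (sums of 45.27 to 132.4 and 130.3 to 175.2), and of 5 inner retina markers 3 (sums of 10.24 to 23.07 and 18.3 to 26.07). The rod gene Sag was called higher (log2 fold change 0.53, SE 0.21, limma adjusted p = 0.0356), and Cnga1 was not (0.26, SE 0.23, limma adjusted p = 0.35). The single cone marker with a probe, Opn1sw, was called higher (3.267 to 5.571 and 6.465 to 10.01). Of 2 microglia markers 1 was called higher (sums of 3.007 to 7.189 and 3.918 to 5.899). By the probe with the highest mean of each gene, none of the 2 pigment epithelium markers (sums of 2.428 to 12.88 and 2.321 to 97.23) or the 2 erythrocyte markers (sums of 1.654 to 3.462 and 1.422 to 2.103) was called. A second tested probe of the pigment epithelium gene Rpe65 was called lower, with a log2 fold change of -0.83 (SE 0.26, limma adjusted p = 0.0111) and of -1.11 (limma adjusted p = 0.0122) after quantile normalization. After quantile normalization 2 of the 4 Mueller glia markers and 1 of the 2 microglia markers were called higher, and 0 of the 5 inner retina markers, neither Sag nor Cnga1 and not Opn1sw, against 24.6% of all tested probes. The part of cell composition in the values of Aanat and the clock genes was not tested.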

How the data were processed

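Total retinal RNA was amplified, biotin labeled and hybridized to 1-color CodeLink arrays (33911 spots, 33849 of them rat probes). The authors scanned the arrays, removed spots outside specification, subtracted background and normalized each array with the CodeLink software. They deposited an intensity per spot before normalization, on a linear scale, and a normalized intensity. The unnormalized one was used, and 3 values were missing. 0 columns of samples were left unused.

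Intensities were divided by the median rat probe of the array, raised to a floor of 0.01 and put on a log2 scale. The 22025 probes tested had a median over arrays above the 35th percentile over the rat probes (0.5545 after scaling) and at least 4 values per group. Limma 3.58.1 (R 4.3.3) was fitted to the 4 groups in 1 model, with calls at a limma p under 0.05 after Benjamini-Hochberg adjustment over all tested probes and a difference of at least 1.2-fold. The methods' test, which allows unequal variances, was an alternative. Correlations were computed in Python 3.11.15 (numpy 2.4.6, scipy 1.17.1). Scripts were tested on simulated data.

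The genes named are all members with their probes (a gene takes its tested probe with the highest mean level), up to 3 highest and 3 lowest of each further list, and the 3 genes most like each member, of which 1 for Per2 is not reported here, nor is 1 rod marker. The members and lists were chosen with earlier results of these data known. Symbols came from RefSeq accessions: 4675 of 5469 RefSeq probes had 1 symbol, 4013 in all. The build behind the probes is not given in the sources used here, so coordinates are those of GRCr8 genes. Array files hold no read depth, and the number of arrays limits the precision. Same-numbered STZ and control arrays did not deviate together (correlations of -0.24 to 0.25), so numbers pair no rats. Alternatives were other scalings, filters, floors, covariates, weights and each array left out.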

Additional observations from a re-analysis of the deposited data

Results flagged for a closer look

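Of 44 groups of 6 arrays examined (11 probes in 4 groups), 3 held an array far from the rest by Dixon's test, for which chance alone gives about 1 in 20. The tested Per2 probe was at 1.44 on array 6 of 1M STZ, where the other 5 arrays were at 3.28 to 3.63. On array 6 Clock (0.850) and Bmal1 (2.66) were also the lowest of the group, where the next lowest were 0.853 and 2.79. Dbp, Nr1d1, Nr1d2, Aanat and Asmt on that array were neither the lowest nor the highest. Nr1d1 was at 3.02 on array 5 of 1M STZ, where Nr1d2 (2.68) and Aanat (1.69) were the highest and Dbp (5.16) the lowest of the group. The second Per2 probe, below the testing limit, was at -4.19 on array 6 of 1M Control.

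The difference between STZ and control differed between the times for Aanat, by 0.89 on the log2 scale in the interaction test of limma (adjusted p = 0.0239). Of all tested probes 15.5% had a called interaction. The Aanat value was 0.51 and not called with values centered on the tested probes (limma adjusted p = 0.125). It was 0.55 and not called with the interquartile range of each array as a covariate (limma adjusted p = 0.912).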

How the results depend on the processing

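At 3 months 6 genes were called, and 3 (Nr1d1, Nr1d2 and Aanat) by the methods' test unadjusted, 2 by it adjusted, 3 after quantile normalization, 2 after quantile normalization within each time point (Clock and Aanat), 3 with values centered on the tested probes (Clock, Nr1d1 and Aanat, an alternative added after seeing the data) and 0 with the interquartile range of each array as a covariate, under which 0 of all 22025 probes were called. Leaving out 1 array gave 5 to 7. For the interaction, 1 gene (Aanat) was called, and 2 with the replicate number as a block (Nr1d2 and Aanat), 4 with array weights, 0 with values centered on the tested probes, 0 with a filter above the limit on all arrays, which drops Aanat, and 0 with the interquartile range as a covariate. Leaving out 1 array gave 1 to 5, with 5 without array 6 of 3M Control (Per2, Clock, Nr1d1, Nr1d2 and Aanat) and 2 without array 5 of 1M STZ, array 4 of 3M Control or array 4 of 3M STZ. With the replicate number as a block 5 genes were called at 3 months. With brightness as a covariate 4 were (Clock, Nr1d1, Nr1d2 and Aanat). Dbp was then at 0.25 (limma adjusted p = 0.272) and Per2 at 0.39 (limma adjusted p = 0.333). With a filter above the limit on all arrays 4 were called at 3 months (Per2, Dbp, Nr1d1 and Nr1d2). This filter drops Clock, Aanat and Asmt. Between the control groups 7 were called, and 0 with the interquartile range as a covariate, where Bmal1 turned to 0.34. Leaving out 1 array gave 7 or 8. At 1 month 0 genes were called under every alternative run.

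Of the 28 correlations 9 passed, and 2 after quantile normalization, 2 in the 1 month arrays alone, 15 in the 3 month arrays alone and 8 with brightness removed, an alternative added after seeing the data. Leaving out 1 array gave 6 to 13, with 6 without array 2 or array 6 of 3M Control and 13 without array 5 of 1M STZ. In the 1 month arrays alone Clock with Bmal1 turned to -0.17 and Bmal1 with Dbp to -0.24. The methods' test and separate models of the time points give no interaction, and neither separate models nor quantile normalization within a time point compare the control groups. The causes of these changes were not tested. Signal over background limits Asmt and Bhlhe40 most, whose probes were near or below the testing limit.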
